A study of Mus musculus with 16 samples.

Results

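The cell cycle and proliferation genes described here are 40 genes whose products copy the DNA, build the mitotic spindle, drive the cell from 1 phase to the next or hold it back. They were chosen by name: a gene entered through the probe sets that carry its symbol and no other, and through the probe set with the highest mean where there were several. Of the 40 genes, 38 had such a probe set, among 19938 genes on the array in all. The mitotic cyclin gene *Ccnb1* had no probe set of its own symbol alone. *Cdkn1a*, which encodes a CDK inhibitor known from the enamel knot, was found only on a probe set shared with other symbols, and neither gene has a value here.

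Affymetrix Mouse Gene 1.0 ST arrays were hybridized with RNA of lower incisors (4 samples), mandibular first molars (8 samples) and maxillary first molars (4 samples) of wild-type C57Bl6 mouse embryos at E14.5. Each sample was the RNA of 4 pooled tooth germs, microdissected whole, so that epithelium, enamel knot, mesenchyme and adhering tissue were measured together. In such bulk samples fewer dividing cells and less RNA per dividing cell cannot be told apart. Which embryos went into a pool is not given in the sources used here, and a p-value therefore reflects only how these samples vary.

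Values are log2 signals after RMA, the normalization and summary of the probes that the authors deposited, and 1 unit is a 2-fold difference in signal. A log2 signal ranks samples for 1 gene and does not rank genes. The sample medians over all probe sets lay between 6.80 and 6.99. The mandibular molars are numbered 1 to 8, and by their median correlation across probe sets samples 5 to 8 lay nearer to the maxillary molars (0.994) than to mandibular molars 1 to 4 (0.990). Mandibular molars 1 to 4 lay nearer to the lower incisors (0.990) than samples 5 to 8 did (0.986). No label names this split, so its differences are given without a test, and each comparison of tooth types is given also within the nearer samples. Those are mandibular molars 1 to 4 against lower incisors, and mandibular molars 5 to 8 against maxillary molars. They were picked by their likeness to the other tooth type and are fewer samples. Smaller differences and fewer passes were thus favoured there by the choice itself.

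A dividing cell passes G1, in which D-type and E-type cyclins with their kinases release E2F factors from the retinoblastoma protein. In S phase the MCM helicase, loaded by Cdc6 and Cdt1, opens the DNA for copying, and in M phase Cdk1 with A-type and B-type cyclins, the Aurora and Polo kinases and the spindle motors separate the chromosomes. In tooth germs at the cap stage the epithelium and the mesenchyme divide while the enamel knot, a signalling centre of the epithelium, does not. CDK inhibitors mark cells that leave the cycle.

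**Figure D1:**
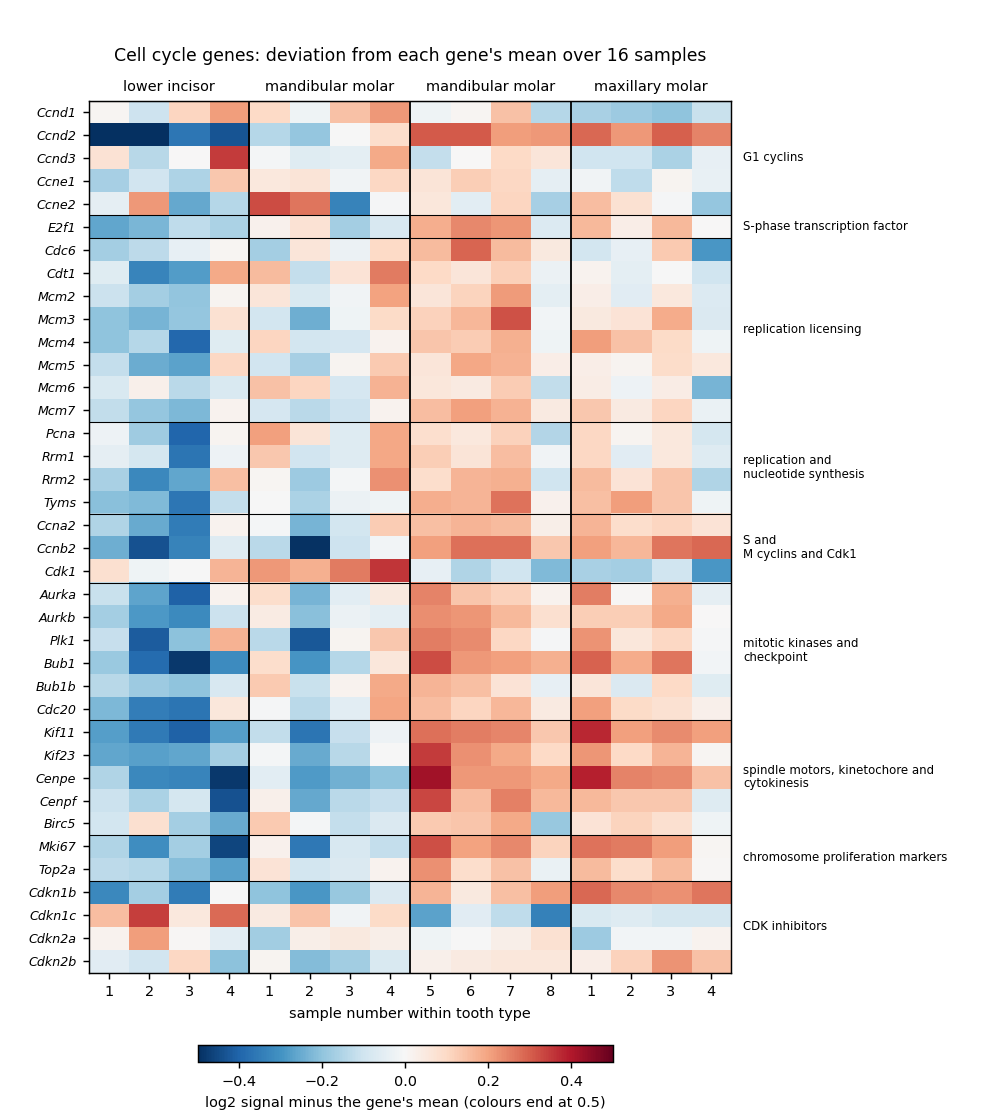
Log2 signal of the 38 genes (rows, grouped by role) in the 16 samples (columns, numbered within tooth type), as the deviation from each gene's own mean over the samples; red is above and blue below that mean. Most rows are blue in the lower incisors and red in mandibular molars 5 to 8 and maxillary molars, while *Cdk1* and *Cdkn1c* run the other way. *Ccnd1*, *Ccnd3* and *Cdkn2a* also average above their mean in the incisors and below it in the maxillary molars.

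Between mandibular molars and lower incisors, 4 of the 38 genes were higher in the molars and none was lower. With 1 sample left out the count of higher genes ranged from 1 (without lower incisor 2 or 3 or mandibular molar 6 or 7) to 12 (without mandibular molar 2). Over these omissions the share of all probe sets that passed as higher ranged from 1.58% (without lower incisor 3) to 4.75% (without mandibular molar 2). The study discarded 1 lower incisor, which it did not name, for a technical problem at hybridization with high background. All 4 were used here. Without lower incisor 1, 2, 3 or 4 the count was 2, 1, 1 or 10, beside 1.71%, 1.82%, 1.58% or 4.19% of all probe sets. The 4 genes that passed with all samples were the G1 cyclin *Ccnd2*, the checkpoint kinase *Bub1*, the Aurora kinase *Aurkb* and the thymidylate synthase *Tyms*. A gene passed at a Benjamini-Hochberg adjusted p under 0.1 over all probe sets (limma) with a fold change above 1.2. By the same rule 2.75% of all 29258 probe sets tested passed as higher in the molars and 2.18% as lower. The signal was higher on average in mandibular molars for 35 of the 38 genes, with a median log2 difference of 0.20, beside 46.1% of all probe sets and a median of -0.02. At an unadjusted p under 0.05 there were 19 genes, 18 of them higher in the molars and 1 lower, beside 18.4% of all probe sets in either direction. *Top2a* and *Bub1b* passed the adjusted p (0.081 and 0.085) but not the fold, with log2 differences of 0.24 and 0.22.

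Within mandibular molars 1 to 4 against lower incisors, only *Ccnd2* passed. Of all 29100 probe sets tested there, 0.948% were higher in the molars and 0.832% lower. The median log2 difference of the 38 genes was 0.14 within these samples, and 34 of them were positive. Over all probe sets the median was -0.01 and 47.7% were positive. The samples of the tooth types did not overlap for *Ccnd2* and *Top2a*, both higher in all 8 mandibular molars, and for no gene that was lower. Without overlap, 1.92% of all probe sets lay higher in the molars and 1.77% lower. With mandibular molars 5 to 8 alone, 19 genes passed as higher than in lower incisors and 1 as lower. Of all 29072 probe sets tested in that fit, 11.9% were higher and 8.88% lower.

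**Figure D2:**
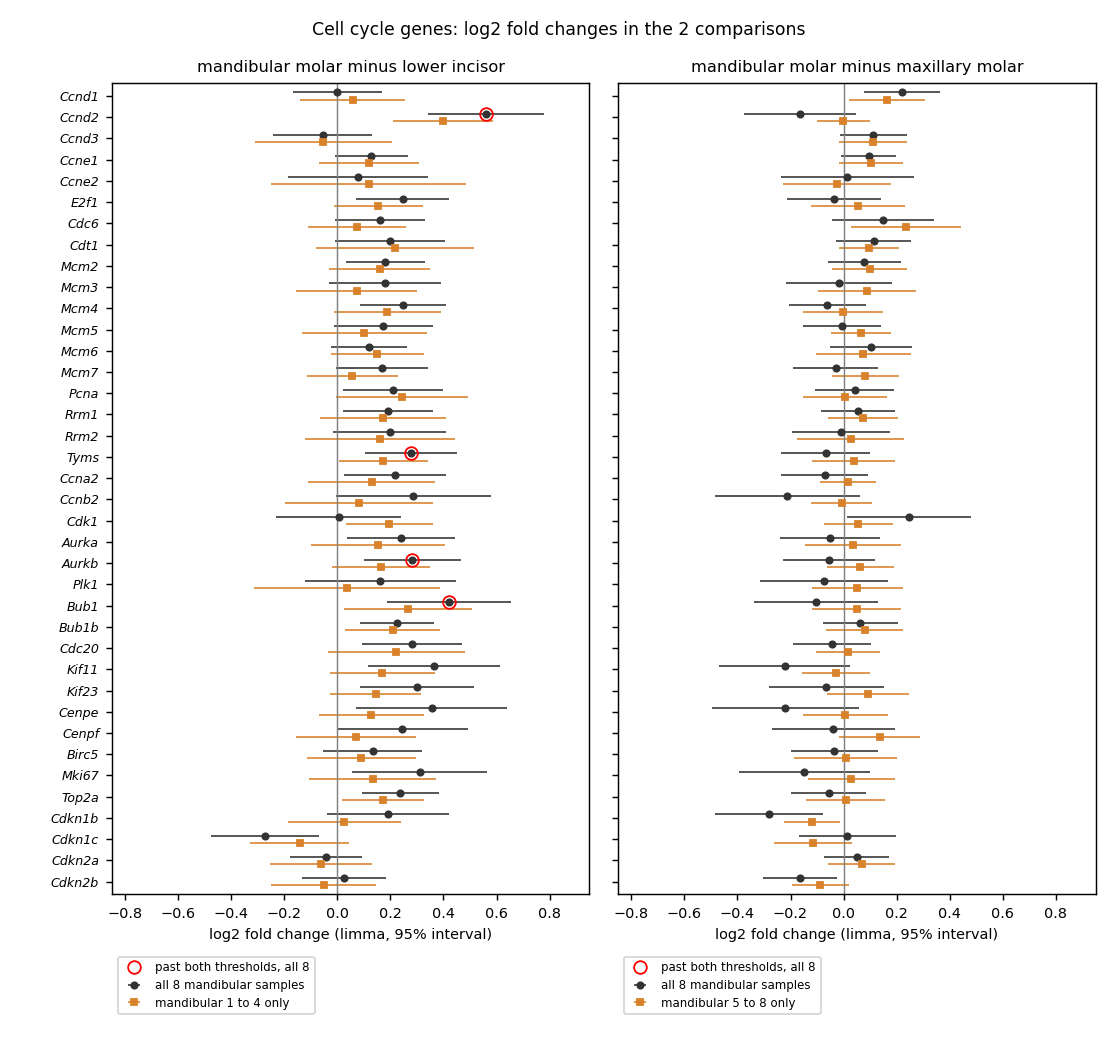
Log2 fold changes of the 38 genes with 95% intervals, mandibular molar minus lower incisor (left) and mandibular molar minus maxillary molar (right), with all 8 mandibular samples (black) and within the nearer samples only (orange); red rings mark genes past both thresholds. On the left 35 of 38 black points lie to the right of 0, and on the right no gene is ringed.

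Of the G1 cyclins, *Ccnd2* differed most. D-type cyclins activate Cdk4 and Cdk6 in response to growth signals. *Ccnd2* had log2 signals of 11.65, 11.70, 11.84 and 11.77 in lower incisors 1 to 4. In mandibular molars it ranged from 12.01 to 12.51 with a median of 12.35, and it was 12.49, 12.42, 12.50 and 12.45 in maxillary molars 1 to 4. All incisors thus lay below all molars. The mandibular signal was higher than the incisor signal by 0.56 on the log2 scale (standard error 0.10, adjusted p = 0.0074), and by 0.40 (standard error 0.08, adjusted p = 0.072) with mandibular molars 1 to 4 alone. It passed with each of the 12 samples left out in turn, with an adjusted p of at most 0.038. The study listed this gene among those that differ in these same samples, so the result is no independent evidence.

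*Ccnd1* and *Ccnd3*, the other D-type cyclin genes, did not pass. *Ccnd1* had 11.08, 10.97, 11.18 and 11.28 in lower incisors, 10.93 to 11.29 with a median of 11.13 in mandibular molars, and 10.91, 10.89, 10.87 and 10.96 in maxillary molars. The lower incisors and mandibular molars overlapped throughout, with a log2 difference of 0.00 (95% interval -0.17 to 0.17). *Ccnd3* had 10.76, 10.55, 10.69 and 11.04 in lower incisors, 10.57 to 10.88 with a median of 10.69 in mandibular molars, and 10.59, 10.59, 10.53 and 10.65 in maxillary molars. Lower incisor 4 stood highest of all 16 samples. The E-type cyclins, which act at the entry into S phase, differed by 0.13 for *Ccne1* and 0.08 for *Ccne2* (adjusted p = 0.31 and 0.75). *E2f1*, the transcription factor that turns on S-phase genes, averaged 9.45 ± 0.06 (SD, n = 4) in the incisors, against 9.70 ± 0.15 (SD, n = 8) in mandibular molars, a difference of 0.25 that did not pass (adjusted p = 0.13).

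The 12 genes of DNA replication all had higher means in mandibular molars than in incisors, and *Tyms* was the gene of them that passed. *Tyms* encodes the enzyme that makes the thymidine nucleotide for DNA. Its log2 signal was 9.98, 9.97, 9.83 and 10.07 in lower incisors, 10.03 to 10.46 with a median of 10.20 in mandibular molars, and 10.34, 10.40, 10.33 and 10.17 in maxillary molars. Lower incisor 4 overlapped with the lowest mandibular molar, sample 2. The difference was 0.28 (standard error 0.08, adjusted p = 0.086) over all 8 mandibular molars and 0.17 (adjusted p = 0.54) with samples 1 to 4 alone. Leaving out 1 sample took the adjusted p of *Tyms* from 0.035 to 0.28, and it passed only without lower incisor 4 or without mandibular molar 2, 3 or 4. After quantile normalization, cyclic loess or centring of each sample on its median, and by the methods' t-test, *Tyms* did not pass.

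*Pcna*, the sliding clamp of the DNA polymerases, had 12.09, 11.94, 11.72 and 12.13 in lower incisors, 11.97 to 12.32 with a median of 12.19 in mandibular molars, and 12.22, 12.13, 12.17 and 12.03 in maxillary molars. Lower incisor 3 lay apart below the others, and the groups overlapped. The difference of 0.21 (standard error 0.09) had an adjusted p of 0.23, and the other probe set of *Pcna* gave 0.23 on the log2 scale (adjusted p = 0.20). The 8 licensing genes, *Cdc6*, *Cdt1* and *Mcm2* to *Mcm7*, which place the replicative helicase on the DNA, differed by 0.12 for *Mcm6* to 0.25 for *Mcm4*, and none passed. *Mcm4* came nearest, with an adjusted p of 0.10 that lay just above the threshold and a fold of 1.19, just under it. *Rrm1* and *Rrm2*, the subunits of ribonucleotide reductase, differed by 0.19 and 0.20 (adjusted p = 0.22 and 0.31).

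The promoters of replication and mitosis genes are known to carry different control letters. Mitosis genes often hold a cell cycle homology region (CHR) and CCAAT boxes, which the MuvB complexes and NF-Y bind, and replication genes hold E2F sites. RefSeq promoter windows (GRCm38.p6, from 250 bases before to 50 after the transcription start) matched 33 of the 40 genes. No window was matched for *Aurkb*, *Ccna2*, *Ccnd1*, *Ccnd2*, *Ccne2*, *Cdkn1c* and *Mcm4*. The windows below are shown because *Ccnb2*, *Kif11* and *Bub1* are mitosis genes whose signals lay apart between the mandibular samples, *Cdk1* is the gene that ran against them, and *Mcm6* is a replication gene. They run 5′ to 3′ in the direction of the gene, and capitals mark the letters of a CHR, a CCAAT box or an E2F site on either strand.
Ccnb2 (chr9:70421505-70421804, minus strand): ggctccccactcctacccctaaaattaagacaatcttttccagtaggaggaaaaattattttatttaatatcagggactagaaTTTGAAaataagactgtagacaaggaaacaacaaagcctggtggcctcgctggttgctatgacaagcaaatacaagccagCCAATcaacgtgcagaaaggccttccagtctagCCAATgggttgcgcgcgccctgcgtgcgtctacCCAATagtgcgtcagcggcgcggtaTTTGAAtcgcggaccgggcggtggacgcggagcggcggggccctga
Cdk1 (chr10:69352863-69353162, minus strand): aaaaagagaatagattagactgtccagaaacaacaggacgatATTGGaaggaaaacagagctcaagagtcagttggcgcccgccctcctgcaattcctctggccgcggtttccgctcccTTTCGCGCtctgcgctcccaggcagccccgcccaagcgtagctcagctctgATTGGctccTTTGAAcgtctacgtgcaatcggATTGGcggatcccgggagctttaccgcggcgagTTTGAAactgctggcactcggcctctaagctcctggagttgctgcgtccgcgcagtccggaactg
Kif11 (chr19:37376132-37376431, plus strand): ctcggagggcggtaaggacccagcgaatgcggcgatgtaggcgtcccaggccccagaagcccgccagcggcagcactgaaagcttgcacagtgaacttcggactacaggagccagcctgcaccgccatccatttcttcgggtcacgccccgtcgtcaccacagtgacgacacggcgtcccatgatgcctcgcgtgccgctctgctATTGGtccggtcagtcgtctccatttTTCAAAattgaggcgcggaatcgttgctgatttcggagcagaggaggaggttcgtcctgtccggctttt
Bub1 (chr2:127831810-127832109, minus strand): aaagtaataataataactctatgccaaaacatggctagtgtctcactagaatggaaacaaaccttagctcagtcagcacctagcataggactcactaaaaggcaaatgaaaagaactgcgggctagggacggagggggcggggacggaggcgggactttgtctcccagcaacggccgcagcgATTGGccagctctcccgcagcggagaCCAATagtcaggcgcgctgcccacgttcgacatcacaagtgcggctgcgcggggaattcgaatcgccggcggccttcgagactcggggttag
Mcm6 (chr1:128359656-128359955, minus strand): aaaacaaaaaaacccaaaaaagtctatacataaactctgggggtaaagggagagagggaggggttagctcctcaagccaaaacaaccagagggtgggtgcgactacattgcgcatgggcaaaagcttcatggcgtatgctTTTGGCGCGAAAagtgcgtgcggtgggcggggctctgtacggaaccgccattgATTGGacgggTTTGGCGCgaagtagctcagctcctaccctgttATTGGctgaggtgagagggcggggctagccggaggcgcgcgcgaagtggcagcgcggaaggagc
Counted in bases from the transcription start to the leftmost letter, *Ccnb2* held a CHR at 4 and at -167 and *Cdk1* at -15 and at -71, with CCAAT boxes at -21, -54 and -87 in *Ccnb2* and at -48, -80 and -208 in *Cdk1*. *Kif11* held 1 CHR on the opposite strand at -19. *Bub1* held CCAAT boxes at -42 and -68 and no CHR letters, and *Mcm6* held E2F letters at -47, -106 and -110 beside CCAAT boxes at -14 and -57. The CHR was searched as TTTGAA, the CCAAT box as CCAAT and the E2F site as TTTGGCGC, TTTCGCGC or TTTCCCGC, on both strands, and 2 matches in all members overlapped another motif.

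Over the windows of 15 mitosis genes, *Ccnb1* included, 11 (73.3%) held a CHR and 14 (93.3%) a CCAAT box. Of the 12 windows of 11 replication genes, 1 (8.3%) held a CHR, 9 (75.0%) a CCAAT box and 6 an E2F site. An E2F site was found in 1 mitosis window (6.7%), that of *Cdk1*. Over all 32851 windows the shares were 17.9% for the CHR, 37.4% for the CCAAT box and 1.8% for the E2F letters. These are letters in a window and not measured sites of binding. The *Cdk1* window held letters of all 3 motifs.

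Among the 16 genes of mitosis, *Bub1* and *Aurkb* passed between mandibular molars and lower incisors. *Bub1* encodes a kinase of the spindle checkpoint, which holds chromosome separation until every kinetochore is attached. Its log2 signal was 10.07, 9.87, 9.77 and 9.94 in lower incisors, 9.96 to 10.58 with a median of 10.38 in mandibular molars, and 10.55, 10.44, 10.52 and 10.24 in maxillary molars. Only mandibular molar 2 reached into the range of the incisors. The difference was 0.42 (standard error 0.11, adjusted p = 0.056), and 0.27 (adjusted p = 0.48) with mandibular molars 1 to 4 alone. *Bub1* no longer passed without lower incisor 2 or 3 or without mandibular molar 6 or 7, with adjusted p of up to 0.19.

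*Aurkb* encodes the kinase of the chromosomal passenger complex, which corrects the attachment of chromosomes and acts in cytokinesis. It had 10.99, 10.87, 10.84 and 11.05 in lower incisors, 10.95 to 11.39 with a median of 11.22 in mandibular molars, and 11.28, 11.28, 11.35 and 11.16 in maxillary molars. Mandibular molar 2 again lay among the incisors. The difference of 0.28 (standard error 0.08, adjusted p = 0.097) was close to the threshold in its p, was 0.17 (adjusted p = 0.64) with samples 1 to 4 alone, and passed without lower incisor 4 or mandibular molar 2 or 3 but with no other sample left out. Its adjusted p ranged from 0.027 to 0.29 over these omissions. Like *Tyms* it did not pass under the 3 other scalings or by the methods' t-test, nor without a filter on low signals.

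The other kinases and checkpoint genes, *Aurka*, *Plk1*, *Bub1b* and *Cdc20*, differed by 0.24, 0.16, 0.22 and 0.28 without passing. *Kif11*, the motor that pushes the spindle poles apart, differed by 0.36 (adjusted p = 0.12), and *Cenpe*, the kinetochore motor, by 0.35 (adjusted p = 0.18). *Kif23*, a motor of the central spindle, *Cenpf*, a kinetochore protein, and *Birc5*, the survivin subunit of the passenger complex, differed by 0.30, 0.24 and 0.13 and did not pass. *Ccna2* and *Ccnb2*, the cyclins of S and M phase, differed by 0.22 and 0.29 (adjusted p = 0.22 and 0.28).

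*Mki67*, which encodes the Ki-67 protein of mitotic chromosomes and is the usual marker of cycling cells, had 11.25, 11.09, 11.23 and 10.94 in lower incisors, 11.04 to 11.72 with a median of 11.46 in mandibular molars, and 11.67, 11.66, 11.61 and 11.41 in maxillary molars. Mandibular molar 2 lay among the incisors and samples 5 to 8 above them. The difference from the incisors was 0.31 (standard error 0.12, adjusted p = 0.19). *Top2a*, the topoisomerase that untangles chromosomes, had 10.58, 10.57, 10.50 and 10.44 in lower incisors, 10.62 to 10.94 with a median of 10.76 in mandibular molars, and 10.87, 10.80, 10.87 and 10.72 in maxillary molars. Every molar lay above every incisor, and its fold was too small to pass. Its other probe set of a single symbol lay under a log2 signal of 5 in all samples and was not tested.

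**Figure D3:**
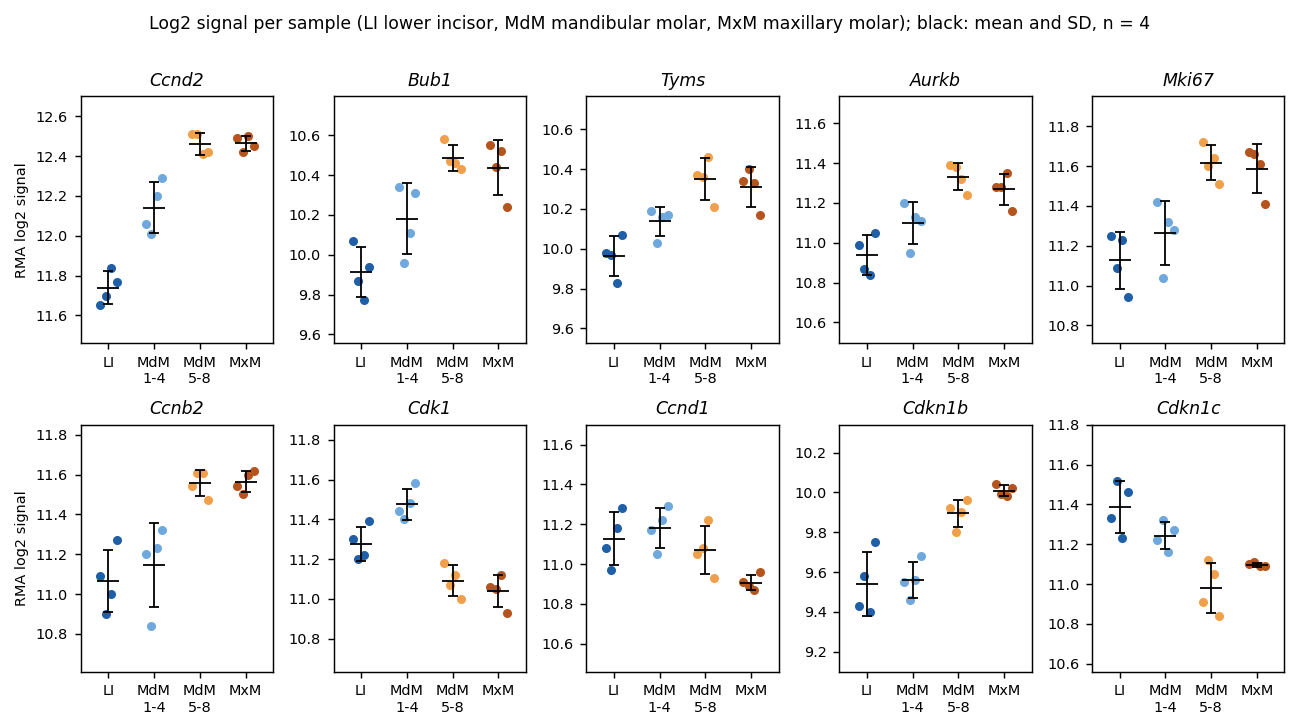
RMA log2 signal of 10 genes in each sample (points) with mean and SD (black, n = 4) for lower incisors, mandibular molars 1 to 4, mandibular molars 5 to 8 and maxillary molars; every panel spans the same number of log2 units. *Ccnb2* and *Mki67* sit higher in mandibular molars 5 to 8 than in 1 to 4, *Cdk1* sits lower, and the lower incisors are lowest for *Ccnd2*.

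*Cdk1*, the kinase that these cyclins activate, did not follow them. Its log2 signal was 11.30, 11.20, 11.22 and 11.39 in lower incisors, and 11.06, 11.05, 11.12 and 10.93 in maxillary molars. Mandibular molars 1 to 4 had 11.44, 11.40, 11.48 and 11.58, and mandibular molars 5 to 8 had 11.18, 11.07, 11.12 and 11.00. Samples 1 to 4 were thus the highest of all 16, and samples 5 to 8 overlapped with the maxillary molars and lay below every incisor. The difference between all mandibular molars and lower incisors was 0.01 (95% interval -0.23 to 0.24), and it was 0.20 (standard error 0.07, adjusted p = 0.42) with samples 1 to 4 alone. *Ccnb2*, by contrast, had 11.20, 10.84, 11.23 and 11.32 in mandibular molars 1 to 4 and 11.54, 11.61, 11.61 and 11.47 in samples 5 to 8. *Cdk1* was read from 1 probe set, so no other value of the array bears on it.

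The CDK inhibitors did not move as 1 group. *Cdkn1c*, an imprinted gene whose product binds cyclin-kinase pairs in cells that leave the cycle, had 11.33, 11.52, 11.23 and 11.46 in lower incisors, 10.84 to 11.32 with a median of 11.14 in mandibular molars, and 11.10, 11.11, 11.09 and 11.09 in maxillary molars. Its mean was highest in the incisors, and the difference of -0.27 (standard error 0.09) did not pass (adjusted p = 0.15). *Cdkn1b*, whose product binds the same pairs, had 9.43, 9.58, 9.40 and 9.75 in lower incisors, 9.46 to 9.96 with a median of 9.74 in mandibular molars, and 10.04, 9.99, 9.98 and 10.02 in maxillary molars. The maxillary molars lay above every other sample, and the difference between mandibular molars and incisors was 0.19 (adjusted p = 0.35).

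The locus of *Cdkn2a* and *Cdkn2b*, whose products block Cdk4 and Cdk6 and, for *Cdkn2a*, also stabilize p53, gave signals with small differences. *Cdkn2a* had 6.66, 6.85, 6.65 and 6.59 in lower incisors, 6.47 to 6.72 with a median of 6.67 in mandibular molars, and 6.46, 6.63, 6.63 and 6.66 in maxillary molars. The groups overlapped, with a difference of -0.04 from the incisors (95% interval -0.18 to 0.09). *Cdkn2b* had 6.67, 6.63, 6.83 and 6.52 in lower incisors, 6.51 to 6.78 with a median of 6.75 in mandibular molars, and 6.76, 6.84, 6.95 and 6.87 in maxillary molars. Its difference from the incisors was 0.03 (95% interval -0.13 to 0.19).

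None of the 38 genes passed in either direction when mandibular molars were set against maxillary molars. Of 29068 probe sets tested, 1.01% passed as higher in the mandibular ones and 1.18% as lower. The methods' t-test with the same thresholds also called none of the 38. The median log2 difference of the genes was -0.04, and 14 of 38 were positive, beside 0.02 and 54.9% over all probe sets. This median was -0.01 without mandibular molar 3 or maxillary molar 1 and -0.07 without maxillary molar 4, and -0.12 with mandibular molars 1 to 4 alone. At an unadjusted p under 0.05 there were 4 genes, beside 17.1% of all probe sets. *Ccnd1* was higher in mandibular molars by 0.22 (standard error 0.07, adjusted p = 0.14) and *Cdk1* by 0.25 (standard error 0.11, adjusted p = 0.27). *Cdkn1b* was at -0.28 (standard error 0.09, adjusted p = 0.18) and *Cdkn2b* at -0.16 (standard error 0.06, adjusted p = 0.24).

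*Cdkn1b* was also the gene whose mandibular samples all lay below the maxillary ones. Of all probe sets 2.02% were lower without overlap and 2.08% higher, and no cell cycle gene was among the latter. The other probe set of *Cdkn1b* lay at a lower signal and gave a difference of -0.36 (standard error 0.15, adjusted p = 0.27). With the probe sets of a gene averaged, *Cdkn1b* passed as lower in mandibular molars, at -0.32 (standard error 0.10, adjusted p = 0.0999). *Ccnd2*, which parted incisors from molars, differed by -0.16 (standard error 0.10, adjusted p = 0.38) between the molars, and *Mki67* by -0.15 (standard error 0.11, adjusted p = 0.49).

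Within mandibular molars 5 to 8 against maxillary molars again none passed, beside 0.54% of all 28686 probe sets higher and 0.743% lower. The sign of the median changed to 0.05 with 30 of 38 genes positive, beside 0.01 and 54.3% over all probe sets. *Ccnd1* differed by 0.16 (standard error 0.06, adjusted p = 0.33) within these samples, *Cdk1* by 0.06 (adjusted p = 0.74), *Cdkn1b* by -0.12 (adjusted p = 0.34) and *Ccnd2* by 0.00 (95% interval -0.10 to 0.10). Against mandibular molars 1 to 4 alone, *Ccnd1* and *Cdk1* passed as higher in mandibular molars, and *Ccnd2*, *Ccnb2*, *Kif11*, *Cenpe*, *Mki67* and *Cdkn1b* as lower. In that fit 8.48% of all probe sets were higher and 10.7% lower.

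Mandibular molars 1 to 4 and 5 to 8 did not overlap for some of the genes. By mean, 30 of the 38 genes were higher in mandibular molars 5 to 8 than in 1 to 4, with a median difference of 0.15, beside 48.7% of all probe sets and a median of -0.01. Without overlap and by more than 1.2-fold, 9 genes were higher in samples 5 to 8 and 1 was lower. By the same rule 6.99% of all 28936 probe sets were higher and 3.89% lower. The 9 genes were *Cenpe* (log2 difference 0.45), *Ccnb2* (0.41), *Kif11* (0.39), *Mki67* (0.35), *Cenpf* (0.35), *Cdkn1b* (0.33), *Ccnd2* (0.33), *Kif23* (0.31) and *Bub1* (0.31), and *Cdk1* was the gene at -0.38. Of the 9 higher genes, 7 are genes of mitosis and none is a replication gene. With 12 replication genes, none is close to the share of 6.99%, and 4 of 27 other replication genes were higher by the same rule.

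*Cenpe* had 9.26, 9.03, 9.07 and 9.11 in mandibular molars 1 to 4 and 9.73, 9.53, 9.53 and 9.50 in samples 5 to 8, with 8.83 to 9.16 in lower incisors and 9.46 to 9.70 in maxillary molars. *Kif11* had 10.55, 10.31, 10.56 and 10.65 in samples 1 to 4 and 10.95, 10.93, 10.92 and 10.81 in samples 5 to 8. For both, mandibular molars 5 to 8 overlapped with the maxillary molars and samples 1 to 4 lay lower. *Mcm7*, *Tyms*, *Aurkb* and *Cdkn2b* were also higher without overlap in samples 5 to 8, by less than 1.2-fold, and *Cdkn1c* was lower by 0.26 on the log2 scale, just short of it. *Pcna*, *Mcm6* and *Cdt1* lay at -0.07, -0.06 and -0.03.

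**Figure D4:**
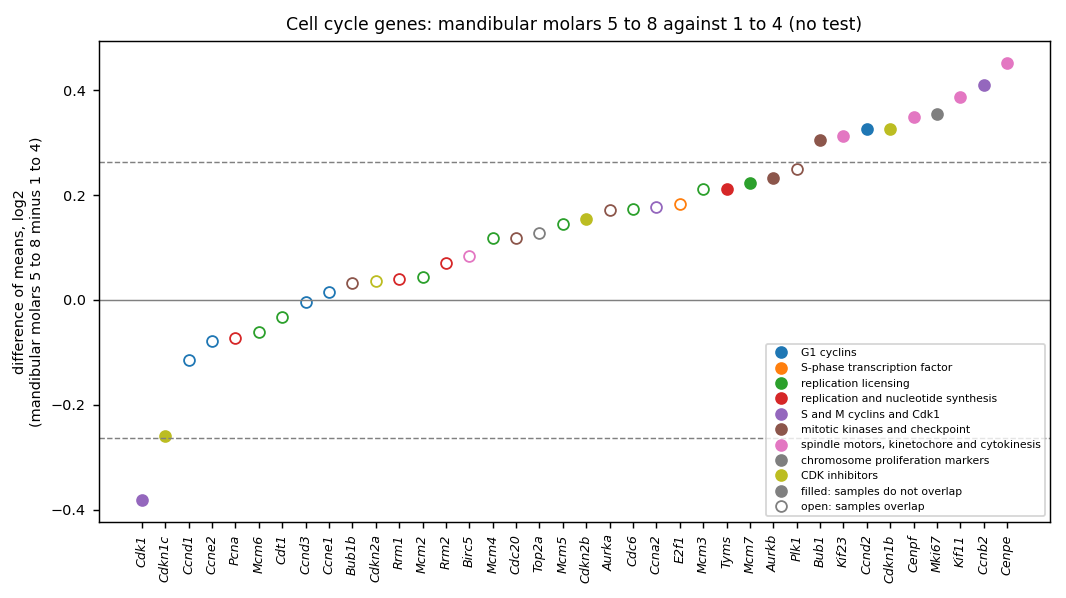
Difference of mean log2 signal between mandibular molars 5 to 8 and 1 to 4 for each of the 38 genes, in rising order and coloured by role; filled points are genes whose 4 and 4 samples do not overlap, and dashed lines mark a 1.2-fold difference. Spindle and kinetochore genes other than *Birc5* (0.08) lie toward the right end, with *Ccnb2*, *Mki67*, *Cdkn1b* and *Ccnd2* among them. *Cdk1* is at the left end at -0.38, followed by *Cdkn1c* at -0.26.

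The genes of mitosis varied together from sample to sample. As a description over the 16 samples, each of 15 mitosis genes, *Cdk1* left out, was correlated with the mean of the other mitosis genes, and the median Pearson r was 0.91 (0.57 for *Birc5* to 0.98 for *Kif23*). Over all 29356 probe sets above 5 in some sample, the median r with that mean was -0.13, and the 5th and 95th percentiles were -0.76 and 0.83. After the means of lower incisors, mandibular molars 1 to 4, mandibular molars 5 to 8 and maxillary molars were taken out, the median r of the mitosis genes was 0.70, beside -0.04 over all probe sets (-0.56 to 0.60). The replication genes had a median r of 0.72 with the mitosis mean before and 0.72 after this step.

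*Cdk1* had an r of -0.48 with the mitosis mean over the 16 samples and of 0.78 once the means of the 4 sets of samples were taken out. Its mean lay higher in mandibular molars 1 to 4 than in lower incisors, and slightly lower in maxillary molars than in mandibular molars 5 to 8, as the mean of the other mitosis genes did. From mandibular molars 1 to 4 to samples 5 to 8 it lay lower where that mean lay higher. *Cdkn1c* changed from -0.76 to 0.05, *Cdkn1b* from 0.82 to 0.30 and *Ccnd2* from 0.90 to 0.39. These samples share hybridization to 1 array type and RMA over all arrays, and a shared shift of a sample enters every such r.

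Taken as the mean deviation of the 16 mitosis genes, the lower incisors lay at -0.27 to -0.15 and mandibular molars 1 to 4 at -0.22 to 0.03. Mandibular molars 5 to 8 lay at 0.04 to 0.24 and the maxillary molars at 0.01 to 0.19. Mandibular molar 2 was the lowest molar, within the range of the incisors. The 12 replication genes gave -0.26 to 0.02 in the incisors, -0.09 to 0.13 in mandibular molars 1 to 4, -0.03 to 0.18 in samples 5 to 8 and -0.09 to 0.09 in maxillary molars, so that the molars overlapped throughout.

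Other genes of the same pathways were taken from 4 lists. Of 42 other mitosis genes, 6 passed as higher in mandibular molars than in the incisors and none as lower, and 39 had a positive difference with a median of 0.24. Over all probe sets 2.75% passed as higher, 2.18% as lower, and 46.1% were positive, and the counts of the lists in this comparison stand beside these shares. *Sgo1*, which protects the cohesion of sister centromeres, differed by 0.39 (adjusted p = 0.099), *Nuf2*, a subunit of the kinetochore's microtubule coupler, by 0.37 (adjusted p = 0.080), and the mitotic motors *Kif15* and *Kif4* by 0.37 and 0.34 (adjusted p = 0.043 and 0.048). Of 27 other replication genes measured, 2 were higher, the primase subunit *Prim1* by 0.38 (adjusted p = 0.068) and the DNA polymerase epsilon subunit *Pole* by 0.36 (adjusted p = 0.094), with a median of 0.17 over the list. None of these passed with mandibular molars 1 to 4 alone. None of 18 other genes of the G1 and E2F pathway passed, with a median of 0.17.

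Of 11 genes measured in the list for cell cycle arrest, *Btg2*, an antiproliferative gene, exceeded the incisor signal in mandibular molars by 0.53 (standard error 0.09, adjusted p = 0.0044), without overlap. It differed by 0.45 (standard error 0.10, adjusted p = 0.11) with samples 1 to 4 alone, which did not pass. *Gas1* is a growth arrest gene whose product is also a co-receptor for hedgehog ligands. Of the 4 lists it was the 1 gene that passed between the molars, beside 1.01% of all probe sets higher and 1.18% lower. It was higher in mandibular than in maxillary molars by 0.44 (standard error 0.08, adjusted p = 0.022), and by 0.31 (standard error 0.05, adjusted p = 0.057) within samples 5 to 8, without overlap in the former.

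Between the mandibular samples, 13 of the 42 other mitosis genes were higher in samples 5 to 8 by the rule above and 1 was lower, beside 6.99% and 3.89% of all probe sets. The latter was *Pttg1*, the securin that restrains separase, at -0.28. Of the replication genes 4 were higher, namely *Chek1* (0.55), *Tk1* (0.49), *Rfc4* (0.41) and *Pole* (0.38), and 2 were lower, *Chaf1a* (-0.35) and *Gins2* (-0.31). Of the G1 and E2F genes 3 were higher, namely *Mycn* (0.70), *Rbl2* (0.48) and *Cdk6* (0.30). Of the list of arrest genes *Cdkn2c* (0.66) and *Mdm2* (0.28), whose product inhibits p53 and so opposes arrest, were higher and *Gas1* was lower (-0.27). These names were picked after their values were seen.

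Markers of tissues in and around a tooth germ were examined in the same comparisons, and not every list differed. The counts of markers below stand beside 2.75% of all probe sets higher and 2.18% lower in mandibular molars against incisors, and 1.01% and 1.18% against maxillary molars. As the mean log2 signal of a list in a sample, 12 skeletal muscle genes lay at 8.67 to 8.77 in the incisors, 8.00 to 9.01 in mandibular molars 1 to 4, 7.61 to 8.40 in samples 5 to 8 and 6.71 to 7.21 in maxillary molars. Against incisors 3 of the 12 were lower in mandibular molars, and against maxillary molars 9 were higher. The 8 neuron genes lay at 7.32 to 7.48, 7.09 to 7.24, 6.73 to 7.01 and 6.60 to 6.75 in the same order, with 3 lower and 1 higher against incisors. The 10 cartilage genes lay at 7.40 to 8.48 in incisors and 7.11 to 7.35 in all molars, with 7 lower in mandibular molars. Of 8 keratinizing epithelium genes 3 were lower than in incisors, of 3 Schwann cell genes tested 2 and of 5 osteoblast genes 1.

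Some markers of the tooth germ itself were higher in mandibular molars. The lists also held genes that the study named as differing by tooth type. Among these were *Lhx6* and *Lhx8* of the dental mesenchyme list, and *Isl1*, *Nefl* and *Nefm* of the neuron list. *Tnnt1* and *Chrna1* of the skeletal muscle list were named too. The counts of these lists are thus in part no independent evidence. *Lhx6* averaged 7.85 in incisors and 10.09 in mandibular molars, and *Isl1* 8.54 and 6.21. In the dental mesenchyme list *Bmp4* (11.10 and 11.13) and *Fgf10* (8.56 and 8.49) differed little. Of 7 dental mesenchyme genes 3 were higher in mandibular molars than in incisors, with list means of 9.47 to 9.90 in incisors, 9.99 to 10.35 in mandibular molars 1 to 4, 10.30 to 10.54 in samples 5 to 8 and 10.51 to 10.61 in maxillary molars. Of 9 enamel knot genes 2 were higher, with list means of 7.19 to 7.45, 7.05 to 7.81, 7.77 to 7.99 and 7.57 to 7.72. Of 9 epithelium genes 1 and of 8 macrophage genes 2 were higher, and no erythroid or endothelium gene, of 8 each, passed. Between the molars, 2 of 7 dental mesenchyme genes were lower and 1 higher in mandibular molars, 2 of 5 osteoblast genes were lower, 2 of 8 neuron genes were higher and 1 lower, and no gene of the other lists but muscle passed. *Cdh19* of the Schwann cell list was under 5 in every sample, and all other markers measured were above it in some sample. Their part in the differences of the cell cycle genes was not tested.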

How the data were processed

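RNA of pools of 4 tooth germs at E14.5 was hybridized to Affymetrix Mouse Gene 1.0 ST arrays (4 samples of lower incisors, 8 of mandibular and 4 of maxillary molars). The authors deposited log2 signals of 35556 probe sets after RMA (Affymetrix Expression Console 1.1, per the labels), which corrects background, equalizes the arrays' distributions and summarizes probes, and narrows large differences. A single gene symbol was paired with 21789 probe sets, several with 1621 and none with 12146 in GEO's platform annotation. Probe sets above 5 in at least 1 compared sample were kept, 29258 against incisors and 29068 against maxillary molars, and all 38 genes were. Linear models with moderated variances (limma 3.58.1, R 4.3.3) were fitted to the compared tooth types without a block. The thresholds were a two-sided Benjamini-Hochberg adjusted p under 0.1 and a fold change above 1.2, and the fit was tested on simulated data.

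The study left out 1 incisor that it did not name, for a technical problem at hybridization with high background, and all 4 were used. The genes and lists were chosen with earlier results of these data known. Of 12 genes picked by role, *Cdkn1a* had no value. For the others and for genes past the thresholds, incisor and maxillary values were given by sample, and mandibular values mostly as range and median. Up to 4 genes past the thresholds were named from each other list. Alternatives were other filters and normalizations, the Student t-test, trend and robust variances, and array weights. Further ones were other sample sets, a replicate block, averaged probe sets and each sample left out. Arrays have no sequencing depth, so the number of samples limits precision.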

Additional observations from a re-analysis of the deposited data

Results flagged for a closer look

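Of 114 sets of 4 or 8 samples of 1 tooth type examined over the 38 genes, 5 held a sample far from the others by Dixon's ratio, and chance gives about 1 in 20. *Mcm3* was 9.37 in lower incisor 4 and 9.06 to 9.10 in the other incisors. *Kif23* was 9.98 in the same sample and 9.88 to 9.89 in the others. *Cenpf* was 9.19 in maxillary molar 4 and 9.39 to 9.42 in the other maxillary molars. *Cdkn2a* was 6.47 in mandibular molar 1, where the others had 6.62 to 6.72, and 6.46 in maxillary molar 1, where the others had 6.63 to 6.66. None of these genes passed the thresholds in a comparison with all samples. With mandibular molars 5 to 8 only, *Mcm3*, *Kif23* and *Cenpf* passed as higher than in the incisors, beside 11.9% of all probe sets.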

How the results depend on the processing

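Of the 38 genes, 4 passed as higher in mandibular molars than in the incisors. This count was 4 with a filter above 6 and with trend and robust variances, and 3 without a filter. It was 2 after quantile normalization, after cyclic loess, with each sample centred on its median and by the Student t-test. Over these settings 2.01% to 3.39% of all probe sets were higher. The count was 7 with all 3 tooth types in 1 fit, 8 with the probe sets of a gene averaged and 16 with array weights. There 3.92%, 5.74% and 9.02% of all features tested were higher, against 2.75%. With mandibular molars 1 to 4 only it was 1, and with samples 5 to 8 only it was 19, beside 0.948% and 11.9% of all probe sets. With 1 sample left out it ranged from 1 to 12. It was 1 without lower incisor 2 or 3 or mandibular molar 6 or 7, and 2 without lower incisor 1 or mandibular molar 1, 5 or 8. It was 3 without mandibular molar 4, 9 without mandibular molar 3, 10 without lower incisor 4 and 12 without mandibular molar 2. Where it was 1, 1.58% to 2.03% of all probe sets were higher. Where it was 9, 10 and 12, the shares were 3.64%, 4.19% and 4.75%. *Ccnd2* was among the genes in every one of these settings. The count of genes lower in mandibular molars was 0, and 1 (*Cdkn1c*) with all 3 tooth types in 1 fit, array weights, averaged probe sets, mandibular molars 5 to 8 only or mandibular molar 2 left out (range 0 to 1 over samples left out). In these 5 settings 2.98%, 7.81%, 4.04%, 8.88% and 3.15% of all features tested were lower, so 1 of 38 genes is no more than about that share. Against maxillary molars both counts were 0 in every setting, each sample left out in turn included (range 0 to 0), except 1 lower (*Cdkn1b*) with averaged probe sets, and 2 higher and 6 lower with mandibular molars 1 to 4 only, beside 8.48% and 10.7% of all probe sets. With the replicate number as a block, which uses samples 1 to 4 of each tooth type, 1 gene was higher and 0 lower against incisors, and 2 higher and 6 lower against maxillary molars, where 9.07% of all probe sets were higher and 11% lower. Same-numbered samples deviated together at correlations of 0.083 to 0.51 with incisors and 0.0038 to 0.34 with maxillary molars, and not every sample correlated best with its own number, so the numbers were not taken to pair samples. The median difference from maxillary molars, -0.04, was 0.01 with array weights and near 0 after quantile normalization, and ranged from -0.07 to -0.01 with 1 sample left out. The level of the median gene was 10.11 in lower incisors, 10.37 in mandibular and 10.40 in maxillary molars, and moved by less than 1 SD with averaged probe sets or centred samples. No gene past the thresholds changed sign. Apart from the sample sets and the omissions, whose construction changes the samples, the cause was not tested. An array has no read depth, and precision rests on 4 to 8 samples a tooth type.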
